A study of Mus musculus with 72 samples.

Results

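Tmem171, Pim1, Arrdc3, Rnf122, Cpeb1, Fzd9, Spsb4, Metrnl, Slc41a3 and Fam53b are 10 genes, of 20239 measured with 1 gene symbol, chosen by their daily rhythm in control mice, which differed between the fast tibialis anterior (TA) and the slow soleus (SOL) in amplitude or in peak time. The choice used measured values of the control animals. The 10 genes are ranks 1 to 10 of all genes for the size of that difference relative to its error. Each gene is read by 1 probe set.

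TA and SOL were taken from the same 36 male mice, C57BL/6 and 5 months old, and each muscle was read on its own array (72 arrays). The mKO mice carried floxed Bmal1 (gene symbol Arntl) and a Cre transgene driven by Mlc1f, the promoter of a fast myosin light chain, so whole-muscle RNA of mKO also holds RNA of cells in which that promoter was not active. The Ctrl mice were littermates without Cre, so an effect of Cre itself and the loss of Bmal1 cannot be told apart. The mice lived under 12 h of light and 12 h of dark, with lights on at zeitgeber time (ZT) 0 and off at ZT12. Sampling ran every 4 h over the day, at 6 times from ZT0 to ZT20, with 3 animals of each genotype at each time.

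In most cells BMAL1 pairs with CLOCK on E-box motifs and switches on repressors that later shut it off, which gives a daily rhythm of transcription. Skeletal muscle runs this clock in its own fibres and is also timed from outside, by feeding, activity, hormones, temperature and nerve input. TA is made mostly of fast fibres and is used in bursts, whereas SOL holds many slow fibres and bears posture for much of the waking phase.

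The 10 genes fall into 4 groups by role. Fzd9 (a Wnt receptor), Tmem171 (a membrane protein) and Slc41a3 (a magnesium transporter) sit in membranes. Metrnl is a secreted protein that in mice is released by exercising muscle and acts on fat. Pim1 (a serine/threonine kinase induced through STAT factors), Arrdc3 (an arrestin-like adaptor that brings receptors into endosomes) and the ubiquitin ligase parts Rnf122 (a RING protein) and Spsb4 (a substrate adaptor with a SOCS box) act in signalling. Cpeb1 binds polyadenylation elements of mRNAs and controls their translation, and Fam53b in fish is needed for beta-catenin to enter the nucleus.

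Promoter sequence was at hand for 8 of the 10 genes in the RefSeq table (build GRCm38.p6), with 13 starts in all, and none was listed for Tmem171 and Rnf122. The 250 bases before each start were searched on both strands for the E-box CACGTG, which 6.02% of all 32851 promoters hold. It was found before 3 starts. They are shown because BMAL1 is the deleted factor, each 5′ to 3′ on the strand of the gene, with the E-box in capitals.
Fzd9, chr5:135251090-135251175, minus strand: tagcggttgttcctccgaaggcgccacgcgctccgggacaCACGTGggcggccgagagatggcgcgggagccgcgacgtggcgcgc
Pim1, chr17:29492987-29493072, plus strand: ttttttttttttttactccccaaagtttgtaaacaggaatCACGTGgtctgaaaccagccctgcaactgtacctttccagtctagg
Slc41a3, chr6:90618996-90619078, plus strand: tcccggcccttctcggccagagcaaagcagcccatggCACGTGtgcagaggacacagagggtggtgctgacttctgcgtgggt
The E-box begins 88 bases before the start in Fzd9, 58 bases before in Pim1 and 213 bases before in Slc41a3. In Fzd9 that start is the outer end of the gene (chromosome 5, 135248938 to 135251047). In Pim1 (chromosome 17, 29490785 to 29496111) and Slc41a3 (chromosome 6, 90604730 to 90646412) it is a further start inside the gene, and whether the muscle transcripts begin there is not known from these data. The other motifs searched were the nuclear receptor half-site AGGTCA (14.0% of all promoters), found before 1 start each of Fam53b and Spsb4, the STAT site TTCNNNGAA (7.02%), found before 1 start of Fam53b, and the FoxO site TGTTTAC (3.17%), found before the same Pim1 start. The D-box TTATGNAA (3.07%) and the cAMP response element TGACGTCA (1.55%) were found before none of the 13 starts. A match is a run of letters, not a shown binding site.

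In the same build the other genes span these positions. Tmem171 lies on chromosome 13 from 98686236 to 98695654 and Arrdc3 on the same chromosome from 80883384 to 80896042. Cpeb1 lies on chromosome 7 from 81347026 to 81458001 and Fam53b on the same chromosome from 132712084 to 132813848. Rnf122 lies on chromosome 8 from 31111827 to 31133318, Spsb4 on chromosome 9 from 96943482 to 97018355, and Metrnl on chromosome 11 from 121702427 to 121717389. No 2 of the 10 genes are neighbours.

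**Figure D1:**
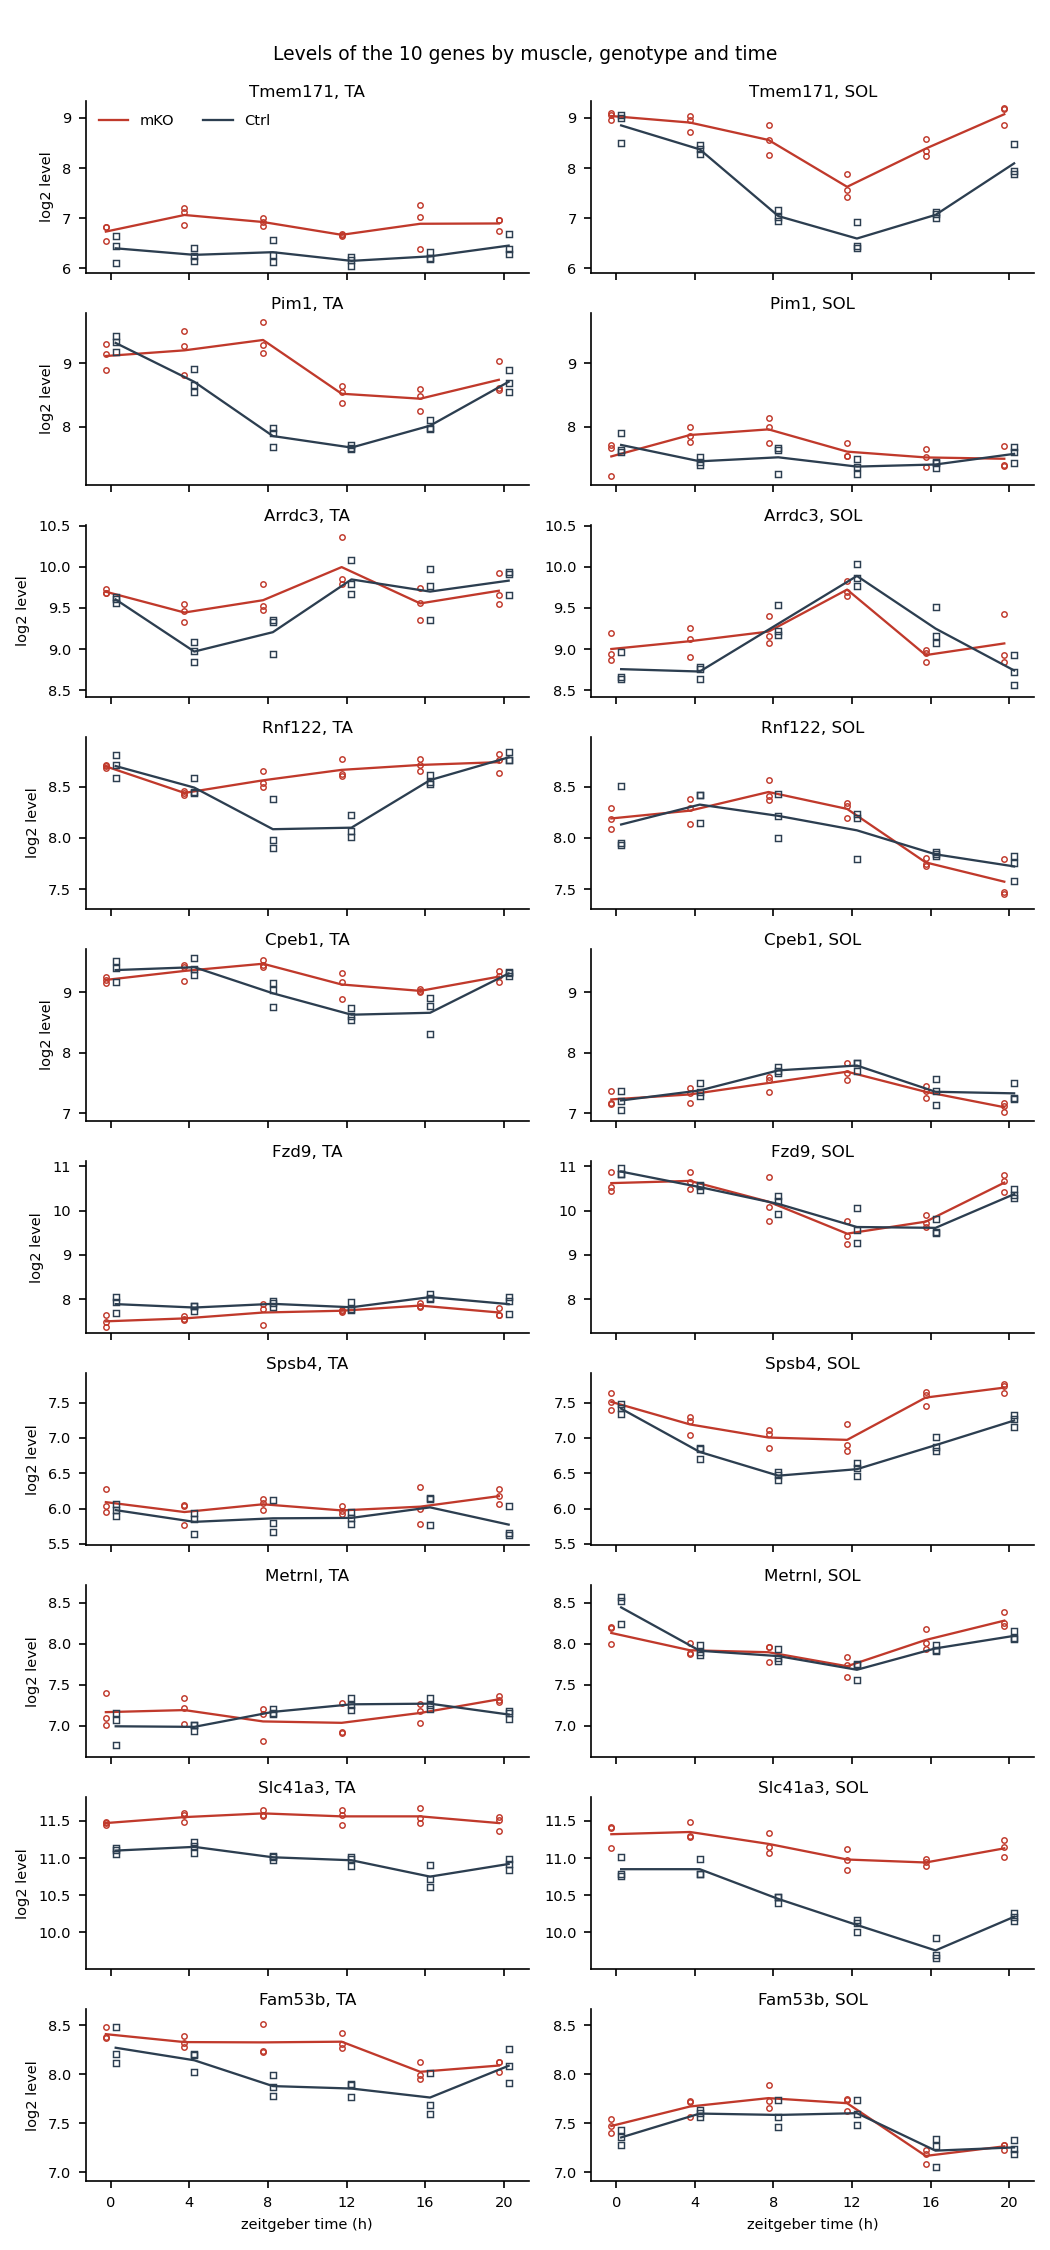
Log2 level of each gene by zeitgeber time (h), with TA in the left column and SOL in the right. Each marker is 1 animal (mKO, circles; Ctrl, squares), lines join the means of 3 animals, and both panels of a gene share their vertical axis. Tmem171, Fzd9 and Spsb4 swing in SOL with amplitudes of at most 0.15 in TA, Metrnl swings less in TA than in SOL, Pim1 swings mainly in TA, and Slc41a3 lies higher in mKO than in Ctrl at every time in both muscles.

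The array values are log2 signals normalised with RMA, and amplitude is the distance from the daily mean to the peak of a fitted 24 h cosine, in log2 units. The label "mainly in one muscle" described only some of the 10 genes. In Ctrl, Tmem171, Fzd9, Spsb4 and Metrnl were past an adjusted p of 0.05 in SOL and not in TA, and Pim1 was past it in TA and not in SOL. Arrdc3, Rnf122, Cpeb1, Slc41a3 and Fam53b were past it in both muscles and differed in peak time or, for Slc41a3, mainly in amplitude. Threshold and amplitude do not sort them alike, since Metrnl had an amplitude of 0.16 in TA and 0.30 in SOL of Ctrl, and Slc41a3, past the threshold in both, had 0.17 in TA and 0.55 in SOL. These Ctrl values chose the genes and are given as a description only, with no test. The TA minus SOL difference in Ctrl had an amplitude of 0.35 in Fam53b and 0.47 in Spsb4, the last genes inside the list, and of 0.42 in Vwa3a, the first outside it. In all, 547 genes were past the threshold in TA of Ctrl, 1224 in SOL of Ctrl and 106 for the difference between the muscles.

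As a check of the labels, slow fibre genes were lower in TA than in SOL for 7 of 7 genes and fast fibre genes were higher for 7 of 7, in both genotypes. Arntl, the targeted gene, had a mean level of 8.14 ± 0.29 in TA of mKO and 8.21 ± 0.82 in TA of Ctrl (SD, n = 18 animals each). In SOL it was 7.90 ± 0.46 in mKO and 7.81 ± 0.99 in Ctrl. Its mean did not pass the test in TA (log2 difference -0.07, limma adjusted p = 0.465) or in SOL (0.09, adjusted p = 0.508), while its fitted amplitude was 0.33 in TA of mKO against 1.09 in TA of Ctrl, and 0.59 in SOL of mKO against 1.34 in SOL of Ctrl. The position of its probes on the transcript is unknown here, so this gene is no check of the deletion. In whole muscle, fewer cells of a type and less RNA per cell cannot be told apart. The TA array of 1 Ctrl animal at ZT0 carried liver transcripts (7 liver genes at a median of 5.18 log2 units above the other 2 animals).

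The animals' identification numbers form the series BM3 (23 animals), BM2* (7) and BM2 (6), whose meaning the labels do not give. All animals at ZT0 and ZT4 were BM3, none at ZT12 was, and at ZT20 the 3 mKO animals were BM2 and the 3 Ctrl animals BM3, so series and time are partly confounded and values within BM3 are given below.

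The mKO animals took no part in choosing the genes, so their rhythm could be tested. In SOL of mKO 9 of the 10 genes were rhythmic, all but Arrdc3, against 5.68% of all genes (limma, moderated F test of the 24 h terms, adjusted over all 20239 genes). The median amplitude of the 10 genes was 0.28, beside 0.08 over all genes. Within BM3 animals 6 passed, and Pim1 (adjusted p = 0.179), Cpeb1 (0.267) and Metrnl (0.496) did not. In TA of mKO only Pim1 passed, against 1.76% of all genes. There the median amplitude was 0.12, beside 0.07 over all genes. The TA minus SOL difference of the rhythm, taken within animals, passed the test in mKO for 6 of the 10 genes, Fzd9, Rnf122, Tmem171, Slc41a3, Spsb4 and Pim1, against 0.380% of all genes. Its median amplitude was 0.29, beside 0.09 over all genes. In Ctrl all of the 10 but Pim1 were past the threshold in SOL, and all 10 were past it for the difference. Genes picked for a rhythm in Ctrl can be rhythmic in mKO more often than all genes are. The share among other genes rhythmic in Ctrl is not given here, so these counts are not read as particular to the 10.

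The last count depends on the animals used. The fit shares its estimate of spread with the Ctrl animals that chose the genes, and with mKO animals alone, a setting added after seeing the data, the count was 3 (Fzd9, Rnf122 and Tmem171). Leaving out replicate A, B or C gave 3, 2 and 3, and Tmem171 did not pass without B (adjusted p = 0.0588). Leaving out 1 mKO animal (ZT0, replicate C) also gave 3, and within BM3 animals the count was 1, Fzd9. Over fits that each left out 1 of the 36 animals, Fzd9, Rnf122 and Tmem171 passed in 36 of 36, Slc41a3 in 34, Spsb4 in 30 and Pim1 in 25.

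**Figure D2:**
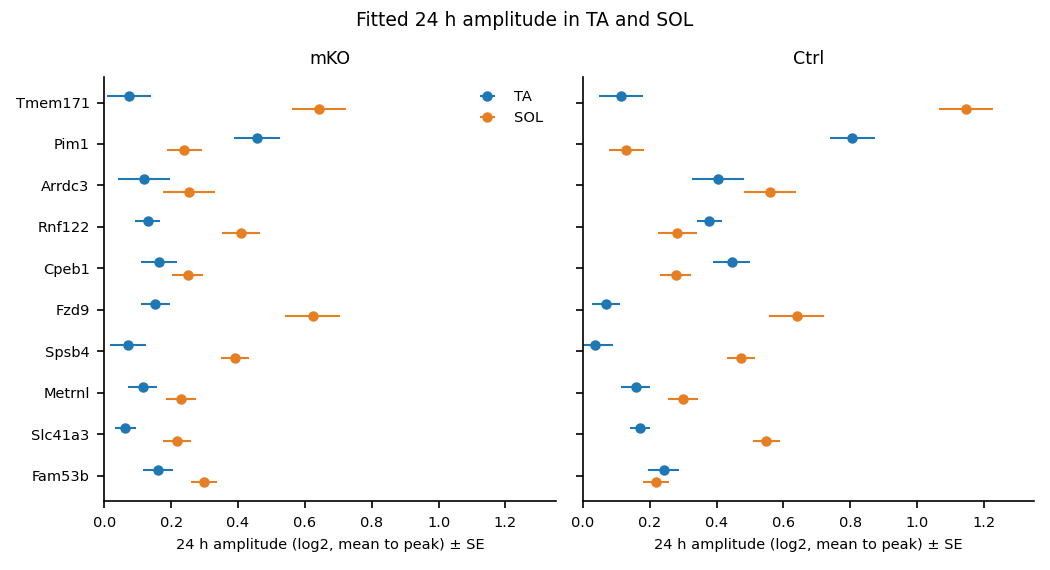
Fitted 24 h amplitude (log2, mean to peak) with its standard error for each gene in TA (blue) and SOL (orange), with mKO in the left panel and Ctrl in the right. In mKO the SOL amplitude lies between 0.22 and 0.64 in all 10 genes, and in TA only Pim1, at 0.46, lies above 0.17.

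Fzd9 had the strongest evidence of a muscle difference in mKO, rank 1 of all genes. In SOL of mKO its levels were 10.49, 10.64 and 10.88 at ZT4, the highest time, and 9.25, 9.42 and 9.76 at ZT12, the lowest. In SOL of Ctrl they were 10.83, 10.83 and 10.97 at ZT0 and 9.49, 9.52 and 9.81 at ZT16. In TA the 18 mKO animals ran from 7.38 to 7.90 (median 7.68) and the 18 Ctrl animals from 7.65 to 8.11 (median 7.92), so every TA array lay below every SOL array. The SOL amplitude in mKO was 0.62 ± 0.08 (SE) with its peak at ZT0.863 (adjusted p = 9.34e-06), beside 0.64 at ZT1.24 in Ctrl. In TA of mKO it was 0.15 ± 0.04 (adjusted p = 0.125), which passed with array weights (0.0483). The difference TA minus SOL in mKO had an amplitude of 0.77 ± 0.08 (adjusted p = 5.46e-06), beside 0.68 in Ctrl.

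Tmem171 had the widest swing in Ctrl. In SOL of mKO it reached 8.86, 9.17 and 9.19 at ZT20 and 7.42, 7.57 and 7.89 at ZT12. In SOL of Ctrl it reached 8.51, 8.99 and 9.05 at ZT0 and 6.42, 6.45 and 6.92 at ZT12. The values 6.42 and 6.45 lay below the array medians (6.67 to 6.84), so that trough is not shown to be above background. At ZT12 all 3 mKO animals lay above all 3 Ctrl animals, and at ZT0 the 2 genotypes overlapped. The SOL amplitude was 0.64 ± 0.08 in mKO (adjusted p = 4.83e-06), beside 1.15 in Ctrl, 56.0% of it, and the peaks were 0.234 h apart. In TA of mKO it was 0.07 ± 0.07 (adjusted p = 0.904), and the difference between the muscles in mKO was 0.60 ± 0.08 (adjusted p = 0.000284). The 18 Ctrl arrays of TA ran from 6.06 to 6.69, with a median of 6.26, below the array medians (6.67 to 6.84). The probe set is therefore not shown to be above background in TA of Ctrl. The 18 mKO arrays of TA ran from 6.39 to 7.26.

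Slc41a3 was rhythmic in SOL of mKO with an amplitude of 0.22 ± 0.04 (adjusted p = 0.00184, and 0.0654 without replicate A), beside 0.55 in Ctrl. Its SOL levels in mKO were 11.28, 11.29 and 11.49 at ZT4 and 10.89, 10.95 and 10.99 at ZT16. In SOL of Ctrl they were 10.76, 10.78 and 11.01 at ZT0 and 9.65, 9.70 and 9.92 at ZT16. In TA the amplitude was 0.06 ± 0.03 in mKO (adjusted p = 0.630), beside 0.17 in Ctrl. The 18 mKO arrays of TA, from 11.36 to 11.67, lay above the 18 Ctrl arrays, from 10.61 to 11.21, with no overlap. Its rhythm difference in mKO was 0.25 ± 0.05 (adjusted p = 0.0173). It did not pass with arrays centred on their median (adjusted p = 0.0936) or with series as covariate (0.0627).

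Metrnl, the secreted factor, was rhythmic in SOL of mKO with an amplitude of 0.23 ± 0.04 and a peak at ZT21.4 (adjusted p = 0.00267), beside 0.30 at ZT23.0 in Ctrl. It did not pass without replicate A (adjusted p = 0.0898), without replicate C (0.0614) or within BM3 animals (amplitude 0.17). Its SOL levels in mKO were 8.21, 8.25 and 8.38 at ZT20 and 7.60, 7.74 and 7.84 at ZT12. In SOL of Ctrl they were 8.24, 8.52 and 8.56 at ZT0 and 7.56, 7.74 and 7.75 at ZT12. The trough levels of the 2 genotypes overlapped. In TA the amplitude was 0.12 ± 0.04 in mKO (adjusted p = 0.382) and 0.16 in Ctrl, where TA was highest at ZT16 and SOL at ZT0. The difference between the muscles in mKO was 0.12 ± 0.05 and did not pass the test (adjusted p = 0.566).

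Spsb4 was rhythmic in SOL of mKO with an amplitude of 0.39 ± 0.04 and a peak at ZT20.4 (adjusted p = 2.63e-07), beside 0.47 at ZT21.8 in Ctrl. Its levels there were 7.64, 7.73 and 7.77 at ZT20 and 6.81, 6.91 and 7.20 at ZT12 in mKO. In Ctrl they were 7.33, 7.42 and 7.49 at ZT0 and 6.40, 6.47 and 6.52 at ZT8. These ZT8 values lay below the array medians (6.67 to 6.84), so the SOL trough of Ctrl is not shown to be above background. In TA all 36 arrays lay between 5.63 and 6.30, below the array medians (6.67 to 6.84) and near the mean of the 7 liver genes in TA of mKO (median 5.78), so the probe set is not shown to be above background there, and the amplitude was 0.07 ± 0.05 in mKO (adjusted p = 0.864) and 0.04 in Ctrl. The difference between the muscles in mKO was 0.32 ± 0.06 (adjusted p = 0.0294). It did not pass with arrays centred on their median (adjusted p = 0.0510).

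Pim1 was the one gene rhythmic in TA of mKO, with an amplitude of 0.46 ± 0.07 and a peak at ZT4.08 ± 0.573 (adjusted p = 0.000286). In TA of Ctrl the amplitude was 0.81 and the peak at ZT23.8. Its levels in TA of mKO were 9.16, 9.29 and 9.64 at ZT8 and 8.25, 8.47 and 8.59 at ZT16. In TA of Ctrl they were 9.18, 9.33 and 9.43 at ZT0 and 7.64, 7.66 and 7.70 at ZT12. At ZT8 every mKO animal stood above every Ctrl animal, which had 7.68, 7.90 and 7.98. Without replicate A or without replicate B the TA rhythm of mKO did not pass (adjusted p = 0.177 and 0.0995). In SOL of mKO the amplitude was 0.24 ± 0.05 with a peak at ZT6.69 (adjusted p = 0.00895), beside 0.13 in Ctrl. That rhythm did not pass without replicate A (adjusted p = 0.211), without replicate B (0.0757) or by a test of any difference among the 6 times (0.0617). The difference between the muscles in mKO was 0.31 ± 0.06 (adjusted p = 0.0389), and did not pass when the muscles were not paired by animal (adjusted p = 0.232).

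Rnf122 had rank 2 of all genes for the muscle difference in mKO. In SOL of mKO it had 8.37, 8.41 and 8.56 at ZT8 and 7.45, 7.47 and 7.80 at ZT20. In SOL of Ctrl it had 8.14, 8.41 and 8.42 at ZT4 and 7.58, 7.76 and 7.83 at ZT20. In TA of mKO the 18 animals kept between 8.42 and 8.82, while TA of Ctrl spanned 7.90 to 8.83 and was lowest at ZT8. The SOL amplitude was 0.41 ± 0.06 with a peak at ZT6.87 in mKO (adjusted p = 3.55e-05), beside 0.28 at ZT5.76 in Ctrl. In TA it was 0.13 ± 0.04 in mKO (adjusted p = 0.161), beside 0.38 at ZT21.6 in Ctrl. The difference between the muscles in mKO was 0.54 ± 0.06 (adjusted p = 1.96e-05), beside 0.58 in Ctrl.

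The 24 h rhythm of Arrdc3 did not pass in either muscle of mKO. Its amplitude was 0.12 ± 0.08 in TA of mKO (adjusted p = 0.803), beside 0.40 at ZT17.1 in TA of Ctrl. In SOL it was 0.25 ± 0.08 in mKO (adjusted p = 0.106), beside 0.56 at ZT11.9 in Ctrl. Its SOL levels at ZT12 were 9.64, 9.70 and 9.83 in mKO and 9.76, 9.87 and 10.04 in Ctrl, above all the other times in both genotypes. At ZT16 they were 8.84, 8.95 and 8.98 in mKO and 9.08, 9.16 and 9.51 in Ctrl. Its SOL rhythm in mKO did pass with array weights (adjusted p = 0.0346), with the spread taken around group means (0.0170), with 12 h terms (0.0347) and by a test of any difference among the 6 times (0.00456). All 3 animals of each genotype at ZT12 were of the series BM2 or BM2*, and the part of the series in this peak was not tested. In Ctrl the SOL amplitude was 0.30 within BM3 animals, which leaves out ZT12, and 0.41 with series as covariate.

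Cpeb1 and Fam53b were rhythmic in SOL of mKO and did not pass in TA of mKO. Cpeb1 in SOL of mKO had an amplitude of 0.25 ± 0.05 with a peak at ZT10.4 (adjusted p = 0.00170, and 0.125 without replicate B), beside 0.28 at ZT10.3 in Ctrl. Its levels in SOL of mKO were 7.55, 7.67 and 7.84 at ZT12 and 7.01, 7.11 and 7.17 at ZT20, and in SOL of Ctrl 7.71, 7.83 and 7.83 at ZT12 and 7.06, 7.20 and 7.37 at ZT0. In TA it had 0.16 ± 0.06 in mKO (adjusted p = 0.285), beside 0.44 at ZT1.07 in Ctrl, so in Ctrl it peaked near lights on in TA and late in the light phase in SOL. Fam53b in SOL of mKO had an amplitude of 0.30 ± 0.04 with a peak at ZT6.98 (adjusted p = 1.09e-05), beside 0.22 at ZT7.33 in Ctrl. In TA it had 0.16 ± 0.05 in mKO (adjusted p = 0.148), beside 0.24 at ZT0.792 in Ctrl. The difference between the muscles in mKO did not pass for Cpeb1 (0.28 ± 0.08, adjusted p = 0.205) or Fam53b (0.17 ± 0.04, adjusted p = 0.150).

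**Figure D3:**
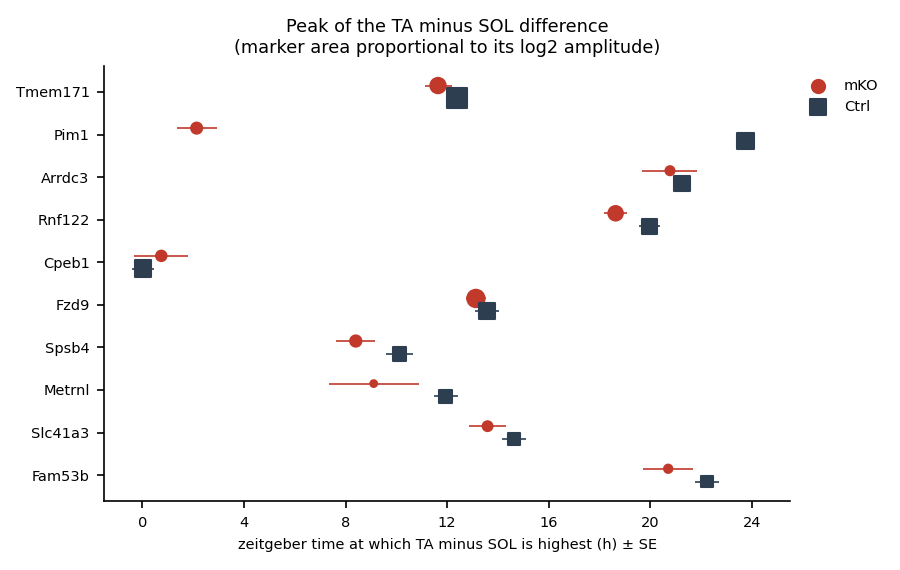
Zeitgeber time (h) at which the fitted TA minus SOL difference is highest, with its standard error, for mKO (circles) and Ctrl (squares). Marker area is proportional to the log2 amplitude of the difference. The 2 genotypes lie within 2.83 h of each other in all 10 genes, and hours wrap at 24.

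The time at which TA stood highest relative to SOL lay within 3 h in the 2 genotypes for 10 of the 10 genes, the widest gap being 2.83 h earlier in mKO for Metrnl. That is near the share of 83.3% (80 of 96) among the other genes past the threshold for this difference in Ctrl, so nothing particular to the 10 genes is read from it. The share was 35.6% over all genes. The amplitude of the difference in mKO ran from 26.8% of that in Ctrl for Metrnl to 113% for Fzd9. Peak times in TA of mKO were within 3 h of those in Ctrl for 2 of the 10 genes, Arrdc3 and Fzd9, neither of them rhythmic in TA of mKO. The share was 81.5% among other genes past the threshold in TA of Ctrl and 39.5% over all genes. These sets are unlike, since Tmem171, Fzd9, Spsb4 and Metrnl were not past that threshold. Some TA peaks in Ctrl were loosely set, with a standard error of 5.91 h for Spsb4 and 2.22 h for Tmem171. Only Pim1 was rhythmic in TA of mKO, so no shift of the 10 genes is read from this count. Peak times in SOL of mKO were within 3 h for 9 of the 10 genes, near the 84.9% of other genes past the threshold in SOL of Ctrl (42.1% over all genes), with Pim1, which was not past the threshold in SOL of Ctrl, 6.73 h later. These comparisons of Ctrl with mKO rhythm are descriptions, since Ctrl rhythm chose the genes.

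Averaged over the day, all 10 genes differed between the muscles. The choice of the genes did not use the daily mean, but it used the same Ctrl animals. Spsb4 in TA, and Tmem171 in TA of Ctrl, are not shown to be above background, as said. The level differences are not read as support for the differences in rhythm, and a link between them was not tested. In mKO 6 genes were higher in TA (27.8% of all genes were) and 4 were lower (20.4% were). In Ctrl the directions were the same for each gene, 6 higher (22.9% of all genes) and 4 lower (20.0%). The 4 genes lower in TA were those past the threshold for rhythm in SOL and not in TA of Ctrl. Fzd9 was lower by a log2 difference of -2.55 ± 0.05 in mKO, a 5.86-fold difference, and -2.31 in Ctrl. Tmem171, low in TA of Ctrl as said, differed by -1.73 in mKO and -1.36 in Ctrl. Spsb4, low in TA as said, differed by -1.28 in mKO and -1.01 in Ctrl, and Metrnl by -0.84 in mKO and -0.85 in Ctrl. Each of these 4 genes was lower in TA in 18 of 18 animals of both genotypes. Cpeb1 was higher in TA by 1.88 ± 0.05 in mKO and 1.60 in Ctrl, and Pim1 by 1.23 in mKO and 0.87 in Ctrl, again in all 18 animals of each genotype. Fam53b was higher in TA by 0.75 in mKO and 0.56 in Ctrl, Rnf122 by 0.55 in mKO and 0.40 in Ctrl, Arrdc3 by 0.50 in mKO and 0.41 in Ctrl, and Slc41a3 by 0.38 in mKO and 0.61 in Ctrl. Rnf122 was higher in TA in 17 of 18 mKO and 13 of 18 Ctrl animals, Arrdc3 in 18 of 18 mKO and 14 of 18 Ctrl animals, and the other genes in all of them. The weakest of these 20 adjusted p was 2.98e-09, for Rnf122 in Ctrl.

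**Figure D4:**
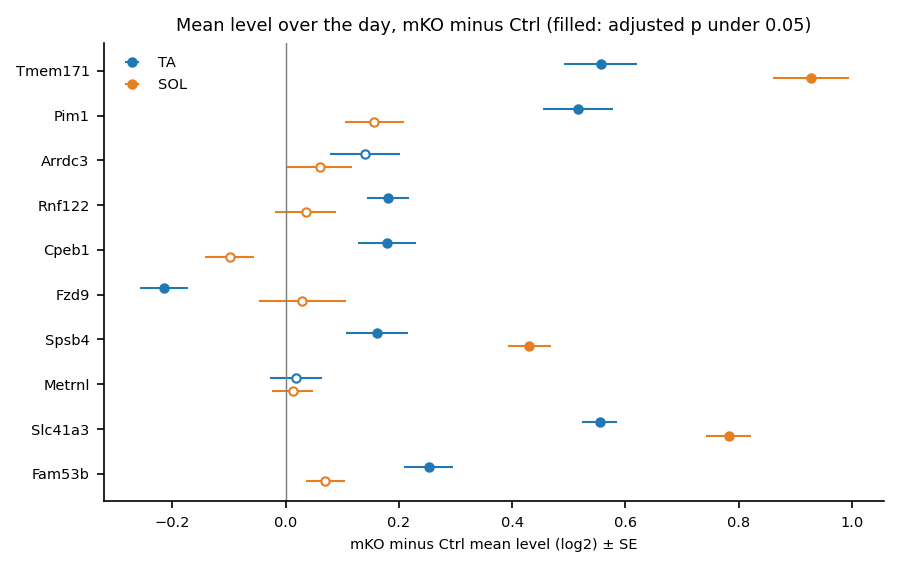
Difference of the daily mean level, mKO minus Ctrl (log2), with its standard error, for each gene in TA (blue) and SOL (orange). Filled markers have an adjusted p under 0.05. Tmem171 and Slc41a3 were higher in mKO in both muscles. Spsb4 was higher in SOL, and in TA its call was weak, at levels not shown to be above background. Fzd9, in TA, was the only one of the 10 to be lower with an adjusted p under 0.05.

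In TA the daily mean was higher in mKO than in Ctrl for 7 of the 10 genes (6.76% of all genes were) and lower for 1 (8.06% were). The median difference of the 10 genes was 0.18, beside 0.02 over all genes. Tmem171 rose by 0.56 ± 0.06 log2 units (adjusted p = 9.73e-08), to 6.86 ± 0.23 in mKO against 6.31 ± 0.18 in Ctrl (SD, n = 18 animals each). Its Ctrl levels in TA are not shown to be above background, as said. Slc41a3 rose by 0.55 ± 0.03 (adjusted p = 2.32e-14) and Pim1 by 0.52 ± 0.06 (adjusted p = 2.35e-07), in Pim1 with the largest gap at ZT8. Fam53b rose by 0.25, Rnf122 and Cpeb1 by 0.18 each, and Spsb4 by 0.16 (adjusted p = 0.0419). For Rnf122 and for Cpeb1 the mKO mean was above the Ctrl mean at 3 of 6 times and below it at 3, so neither rose throughout the day. Fzd9 fell by 0.22 ± 0.04 (adjusted p = 0.000443), with the mKO mean below the Ctrl mean at 6 of 6 times. Arrdc3 (0.14 ± 0.06, adjusted p = 0.141) and Metrnl (0.02 ± 0.05, adjusted p = 0.840) did not pass.

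Within BM3 animals 5 of the genes were past the threshold in TA. Pim1 (0.44, adjusted p = 0.0542), Rnf122 (0.10), Cpeb1 (0.05) and Spsb4 (0.10) did not pass there, and Arrdc3 did (0.32, adjusted p = 0.00593). Spsb4 also did not pass without the animal with liver transcripts (adjusted p = 0.0666), with array weights (0.0501) or with arrays centred on their median (0.0888). It did not pass without replicate A (adjusted p = 0.124), B (0.185) or C (0.156), and passed in 16 of the 36 fits that left out 1 animal.

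In SOL 3 of the genes were higher in mKO (3.56% of all genes were) and none was lower by limma (3.54% were; 5 of the 10 had an unadjusted p under 0.05 in either direction). The median difference was 0.06, beside 0.00091 over all genes. Tmem171 rose by 0.93 ± 0.07, a 1.90-fold difference (adjusted p = 8.88e-12), to 8.60 ± 0.54 in mKO against 7.67 ± 0.86 in Ctrl. Slc41a3 rose by 0.78 ± 0.04, a 1.72-fold difference (adjusted p = 2.95e-15), to 11.15 ± 0.19 in mKO against 10.37 ± 0.42 in Ctrl. Spsb4 rose by 0.43 ± 0.04 (adjusted p = 9.35e-10), to 7.33 ± 0.31 in mKO against 6.90 ± 0.36 in Ctrl. The mKO mean of these 3 genes was above the Ctrl mean at 6 of 6 times in both muscles. The troughs of Tmem171 and Spsb4 in SOL of Ctrl are not shown to be above background, as said. Pim1 in SOL differed by 0.16 ± 0.05 (adjusted p = 0.0626), and passed with array weights (adjusted p = 0.00439) and among genes above the median level (adjusted p = 0.0295).

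The genotype effect differed between the muscles for 6 of the 10 genes. It was higher in TA than in SOL for 3 (1.20% of all genes), Pim1 (0.36 ± 0.06, adjusted p = 0.000206), Cpeb1 (0.28 ± 0.07, adjusted p = 0.0271) and Fam53b (0.18 ± 0.05, adjusted p = 0.0219). It was lower in TA than in SOL for 3 (1.52% of all genes), Tmem171 (-0.37 ± 0.08, adjusted p = 0.00265), Slc41a3 (-0.23 ± 0.05, adjusted p = 0.00638) and Spsb4 (-0.27 ± 0.07, adjusted p = 0.0160). Levels of Spsb4 in TA, and of Tmem171 in TA of Ctrl, are not shown to be above background, as said. Within BM3 animals none of the 10 passed by limma (4 had an unadjusted p under 0.05), and within BM2 and BM2* animals 1 did, Pim1. Without replicate A, B or C the count was 1, 3 and 1. The Cre promoter is that of a fast myosin light chain, and SOL holds many slow fibres. An unequal loss of Bmal1 in the 2 muscles and an unequal response to it cannot be told apart. The same holds for the rhythm difference in mKO.

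Of 28 measured relatives, 4 were rhythmic in TA of mKO (1.76% of all genes were) and 5 in SOL of mKO (5.68% were). The muscle difference in mKO passed for 2 (0.380% of all genes). These were Fzd7 (a further Wnt receptor, amplitude 0.47, adjusted p = 0.00647) and Arrdc2 (an arrestin-like adaptor, 0.41, adjusted p = 0.0131). Fzd7 in SOL of mKO peaked at ZT17.6, against ZT0.863 for Fzd9. In TA of mKO the relative with the smallest p for rhythm was Txnip, an arrestin-like regulator of glucose uptake (amplitude 0.39, adjusted p = 0.000801), while Arrdc2 had a larger amplitude (0.57, adjusted p = 0.00462). In SOL of mKO it was Fzd4 (amplitude 0.56, adjusted p = 5.34e-06). Fzd4, a receptor abundant on endothelium, fell by 0.76 in TA of mKO (adjusted p = 9.48e-11) and by 0.46 in SOL of mKO (adjusted p = 1.20e-05). In daily mean level 2 of the 28 relatives were higher (6.76% of all genes were) and 6 lower (8.06% were) in TA of mKO. In SOL of mKO 2 were higher (3.56% of all genes) and 2 lower (3.54%). Cpeb2, like Cpeb1 an RNA-binding protein, fell by 0.35 in TA of mKO (adjusted p = 1.31e-05). Slc41a1, like Slc41a3 a magnesium transporter, rose by 0.35 in TA of mKO (adjusted p = 1.40e-05) and by 0.41 in SOL of mKO (adjusted p = 6.21e-07).

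Of 16 genes of Wnt reception none was rhythmic in either muscle of mKO by limma (1 had an unadjusted p under 0.05 in TA and 4 in SOL). Over all genes 1.76% were rhythmic in TA of mKO and 5.68% in SOL of mKO, and the short lists below stand beside these shares. Of 10 genes of magnesium transport 1 was rhythmic in TA of mKO and 2 in SOL of mKO, led by Cnnm3 in both muscles (0.18 in TA, adjusted p = 0.0168, and 0.39 in SOL, adjusted p = 6.02e-06). In daily mean level 1 of these 10 was higher and 2 were lower in each muscle of mKO. Over all genes 6.76% were higher and 8.06% lower in TA, and 3.56% higher and 3.54% lower in SOL. Counts this small are not read as a trait of the list. Cnnm4, a magnesium transport protein, rose by 0.50 in TA of mKO (adjusted p = 1.71e-11) and by 0.43 in SOL of mKO (adjusted p = 8.06e-08). Of 12 cytokine and STAT targets 2 were rhythmic in TA of mKO, Bcl6 (0.36, adjusted p = 0.00395) and Socs2 (0.41, adjusted p = 0.0496), and 3 in SOL of mKO. In daily mean level 3 of the 12 were lower in TA of mKO (8.06% of all genes were). Socs2, a feedback inhibitor of cytokine signalling, fell by 0.64 in TA of mKO (adjusted p = 3.10e-06). Of 9 measured genes of the beta-adrenergic response 1 was rhythmic in TA of mKO, Pde4b, and 2 in SOL of mKO, Pde4d and Nr4a3. In daily mean level 2 of these 9 were higher and 4 lower in TA of mKO, and 1 higher and 3 lower in SOL. Of the 16 genes of Wnt reception 2 were higher and 2 lower in TA of mKO, and 3 lower in SOL. These counts stand beside the shares over all genes given above and are not read as a trait of either list. The muscle difference in mKO passed by limma for none of the 47 measured genes of these 4 lists (6 had an unadjusted p under 0.05).

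Of 18 measured core clock genes 11 were rhythmic in TA of mKO (1.76% of all genes were) and 16 in SOL of mKO (5.68% were). The difference between the muscles passed for 8 in mKO (0.380% of all genes). It was led by Nr1d1, which encodes the repressor REV-ERB-alpha (amplitude 0.67, adjusted p = 9.97e-05), and Arntl (0.42, adjusted p = 0.00197). Nr1d1 had an amplitude of 0.75 in TA of mKO and 1.40 in SOL of mKO.

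Some markers of other cell types differed between the muscles in level. In both genotypes 6 of 6 adipocyte genes were lower in TA, and their mean log2 level per array in mKO was 6.92 to 7.27 in TA and 7.29 to 8.69 in SOL. In Ctrl it was 6.99 to 7.45 in TA and 7.27 to 8.59 in SOL. Endothelial genes were lower in TA for 6 of 7 in mKO and 5 of 7 in Ctrl. Over all genes 20.4% were lower in TA in mKO and 20.0% in Ctrl. The TA minus SOL rhythm difference in mKO passed by limma for none of the 62 measured markers of endothelium (7), macrophages (6), adipocytes (6), fibroblasts and tendon (6), satellite cells (4), Schwann cells (3), smooth muscle (4), blood cells (5), liver (7), slow fibres (7) and fast fibres (7), of which 4 had an unadjusted p under 0.05. The part of these cell types in the level differences between TA and SOL was not tested.

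The daily course of some members ran in parallel. Over the 24 group means, centred within muscle and genotype, Tmem171 and Fzd9 correlated with r = 0.880, and Spsb4 and Metrnl with r = 0.837. The genes most like Tmem171 over all genes were Stmn2 (r = 0.901) and Twsg1 (0.887), those most like Fzd9 were Colq (0.900) and Tmem171, and those most like Spsb4 were Sox9 (0.902) and Unc119b (0.884). For Metrnl they were Chsy1 (0.840) and Spsb4, for Slc41a3 Rnft1 (0.883) and Enox1 (0.850), and for Pim1 Cmah (0.831) and Dennd2c (0.798). For Arrdc3 they were Acvr1b (0.862) and Lin9 (0.858), for Rnf122 Smad3 (0.826) and Tet2 (0.822), for Cpeb1 Fam20c (0.873) and Mc5r (0.811), and for Fam53b Antxr2 (0.886) and Hsd17b7 (0.886). These points share arrays, animals and times of day, so the correlations are descriptions.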

How the data were processed

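RNA of TA and SOL from 36 mice was hybridised to 72 arrays. The deposited values are log2 signals. RMA, with no version, is the tool named by the submitters' processing notes for these arrays, and other steps of the authors are not given in the sources used here. The 21225 probe sets were named through the platform's annotation (20239 by 1 symbol, none by several, 986 not listed there). Arrays give no counts, so their number limits the precision. No array was a copy of another (r from 0.954 to 0.996 between arrays).

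Tests used limma 3.58.1 in R 4.3.3 (lmFit, eBayes) over all 20239 genes with Benjamini-Hochberg adjustment and a threshold of 0.05, and were tested on simulated data. Rhythm was a cosine and a sine of 24 h tested jointly. Its standard error is that of the cosine term. Mean levels came from a term for each genotype and time. Differences between muscles were taken within animals, since the labels state that both muscles come from the same animal (deviations of the pairs correlated with a median r of 0.046). The replicates are separate animals.

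The 10 genes, the lists and the tests were chosen with earlier results of these data known. Ctrl rhythm chose the genes and has no test here. Named genes are the 10, their 2 nearest by correlation, Arntl, and up to 2 of each list with the smallest p in a test. Vwa3a is named as the gene just outside. Promoter sequences are RefSeq's, and motifs and the windows shown were chosen after values were seen. Alternatives were replicates, single animals or the animal with liver transcripts left out, genes above the median level, array weights, median centring, series of animals, replicate block, other rhythm terms and mKO animals alone.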

Additional observations from a re-analysis of the deposited data

Results flagged for a closer look

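Some genes differed between the muscles by a test of the difference itself. About the rhythm, the amplitude of the TA minus SOL difference in mKO was 0.60 for Tmem171, 0.31 for Pim1, 0.54 for Rnf122, 0.77 for Fzd9, 0.32 for Spsb4 and 0.25 for Slc41a3. About the daily mean, the genotype effect in TA minus that in SOL was -0.37 for Tmem171, 0.36 for Pim1, 0.28 for Cpeb1, -0.27 for Spsb4, -0.23 for Slc41a3 and 0.18 for Fam53b. Pim1, Tmem171, Spsb4 and Slc41a3 differed in both respects in the main fits. With mKO animals alone the rhythm difference of Pim1, Spsb4 and Slc41a3 did not pass. Within BM3 animals the difference in genotype effect passed for none of the genes. Levels of Spsb4 in TA, and of Tmem171 in TA of Ctrl, are not shown to be above background.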

How the results depend on the processing

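The count of members past the threshold for the rhythm difference in mKO was 6. It was 2 to 3 when 1 replicate letter was left out, 3 to 6 when 1 animal was left out, 1 within BM3 animals, 3 by a test of any difference among the 6 times and 3 with mKO animals alone. Without pairing (no replicate block) it was 5. For rhythm in TA of mKO the count of 1 became 0 to 1 with 1 letter left out (0 without A, where 4 had an unadjusted p under 0.05, and 0 without B, where 2 had, by limma) and 2 with array weights. For rhythm in SOL of mKO the count of 9 was 6 to 8 with 1 letter left out and 9 to 10 with 1 animal left out. The count of 8 for mKO minus Ctrl in TA was 5 within BM3 animals, 7 to 8 with 1 animal left out and 8 with the replicate block, which left all 40 calls of the 10 genes in the 4 tests it applies to as they were. The interaction count of 6 was 1 to 3 with 1 letter left out, 5 to 7 with 1 animal left out, 0 within BM3 animals and 1 within BM2 and BM2* animals. The cause of these changes was not tested. Over all genes the rhythm difference passed for 7 within BM3 animals, against 77 with all animals. Fits on BM2 and BM2* animals, on mKO animals alone and without single animals were chosen after seeing the data. The TA minus SOL levels passed in both genotypes for every gene tested in each setting run (9 of the 10 are above the median level of all genes). The same letter in mKO and Ctrl is not stated to mark a shared litter, batch or day (21 of the 36 pairs had a correlation of deviations above 0.1, the lowest being -0.280, the median 0.153 and the highest 0.322), so it was used as a block only as an alternative.

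Values that changed sign were all uncalled. They were near 0, or came from fits within BM3 animals or within BM2 and BM2* animals. For Metrnl the TA difference was -0.00098 without the animal with liver transcripts, -0.0096 with array weights and -0.17 within BM2 and BM2* animals. With 1 letter left out it lay between -0.00997 and 0.066. With 1 letter left out its SOL difference lay between -0.0025 and 0.038, its interaction between -0.0075 and 0.028, the SOL difference of Rnf122 between -0.017 and 0.072 and that of Fzd9 between -0.0041 and 0.091. For Metrnl the SOL difference was -0.0046 without the liver animal, -0.015 with array weights and -0.089 within BM3 animals. Its interaction was -0.0055 with median centring, -0.00091 with series as covariate and -0.24 within BM2 and BM2* animals. The SOL difference of Fzd9 was -0.019 within BM3 animals and -0.15 within BM2 and BM2* animals, and that of Arrdc3 was -0.24 there.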
